A study of Mus musculus with 12 samples.

Results

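The genes described here encode the sperm calcium channel CatSper and the sperm potassium channel SLO3: *Catsper1*, *Catsper2*, *Catsper3*, *Catsper4*, *Kcnu1* and *Lrrc52*. A gene was measured by every probeset of the Affymetrix mouse genome expression array whose annotation named that gene and no other, which gave 7 probesets of 5 genes out of 45037 probesets and 18161 genes. No probeset named *Catsper4* alone in the annotation used, and it was not analysed here. The study compared spermatogenic cells of PWD/Ph (PWD) and C57BL/6J (B6) males, an inbred strain of *M. m. musculus* origin and one mainly of *M. m. domesticus* origin. Testes of untreated mice aged 8 to 10 weeks were sorted by flow cytometry into LP cells (prepachytene spermatocytes), RP cells (pachytene spermatocytes) and ST cells (spermatids). In the paper's methods the earlier spermatocyte sort also holds early pachytene cells, and the later sort also holds diplotene cells. RNA was hybridized from 2 samples per combination of strain and population, which gave 6 groups and 12 arrays. Values are log2 expression, and the number of arrays limits their precision.

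CatSper is a calcium channel of the sperm tail that opens when the cell interior becomes alkaline and drives the vigorous, hyperactivated beat needed to fertilize an egg. Its pore is built from the products of *Catsper1* to *Catsper4*, and male mice that lack any of them are infertile. SLO3, the product of *Kcnu1*, is the alkalinization-activated potassium channel that hyperpolarizes mouse sperm, and LRRC52 is its auxiliary subunit. The channels work in sperm, which no longer transcribe their genes, so that their messages have to be made earlier in the germ line.

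The start sites of 3 of the measured genes had an entry in the RefSeq promoter table (GRCm38.p6), and are shown because the genes differed in the population in which their level first reached its maximum. Each stretch runs 5′ to 3′ over 250 bases before and 50 bases after the start, with CG dinucleotides in capitals. *Catsper2* lies at chr2:121413743-121414042 on the minus strand, *Catsper3* at chr13:55784329-55784628 on the plus strand and *Lrrc52* at chr1:167466731-167467030 on the minus strand.
Catsper2: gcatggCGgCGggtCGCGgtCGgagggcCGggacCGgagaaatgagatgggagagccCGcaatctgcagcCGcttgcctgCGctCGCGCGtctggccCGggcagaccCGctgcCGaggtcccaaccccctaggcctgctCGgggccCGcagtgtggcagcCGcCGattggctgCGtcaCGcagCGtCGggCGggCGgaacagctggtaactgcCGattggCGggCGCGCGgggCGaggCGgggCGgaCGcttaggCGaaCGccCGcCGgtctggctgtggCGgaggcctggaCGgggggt
Catsper3: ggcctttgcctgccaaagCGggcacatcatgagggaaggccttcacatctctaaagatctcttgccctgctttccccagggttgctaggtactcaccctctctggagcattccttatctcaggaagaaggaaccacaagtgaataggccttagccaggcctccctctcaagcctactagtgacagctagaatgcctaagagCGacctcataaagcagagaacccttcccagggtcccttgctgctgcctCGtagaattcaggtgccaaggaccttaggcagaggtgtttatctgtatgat
Lrrc52: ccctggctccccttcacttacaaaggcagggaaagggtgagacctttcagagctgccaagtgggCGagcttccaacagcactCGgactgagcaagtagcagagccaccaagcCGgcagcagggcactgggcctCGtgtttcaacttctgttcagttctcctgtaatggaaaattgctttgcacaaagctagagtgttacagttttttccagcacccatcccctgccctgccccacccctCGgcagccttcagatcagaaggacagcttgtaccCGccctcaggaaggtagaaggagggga
The *Catsper2* stretch held 41 CG dinucleotides, a number that 3.5% of the 32851 promoters of the table reached, and was 74.7% G and C. The *Catsper3* stretch held 3 CG dinucleotides and the *Lrrc52* stretch 6, where the median promoter held 7. The half-site of the cAMP response element, TGACG, was found on either strand 1 time in the *Catsper2* stretch and in neither of the others. Of all promoters, 20.8% held it. The full element TGACGTCA, which contains the half-site and was present in 1.8% of promoters, and the MYB motif AACNGTT, present in 4.5%, had no match in the 3 stretches on either strand. Whether CG number or motifs relate to the population in which a gene first reached its maximum was not tested. *Catsper1* (chromosome 19) and *Kcnu1* (chromosome 8) have no sequence shown.

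Levels were read against a background level of 5.08 log2, the 95th percentile of 42 probesets of 27 genes of other organs. *Catsper1*, *Catsper2* and *Catsper3* exceeded it on all 12 arrays, *Kcnu1* on 11 and *Lrrc52* on 5. Between consecutive populations the marker lists moved with the labels only in part. Over both strains (limma), all 10 prepachytene markers fell in RP cells against LP cells. All 15 spermatid markers rose in ST cells against RP cells. All 10 pachytene and diplotene markers rose in RP cells against LP cells, but in ST cells against RP cells 4 fell and 2 rose. In that later step 4 prepachytene markers rose and 4 fell. From LP to RP cells 9 spermatid markers fell and 3 rose. Of all genes, 43.7% rose and 28.5% fell from LP to RP cells, and 18.3% rose and 23.8% fell from RP to ST cells. Against LP cells, 12 of the 15 spermatid markers were higher in ST cells and none was lower. The spermatid markers were above background on all 12 arrays. Their summed level was 14.75 to 15.44 log2 in RP cells, below the 16.07 to 17.01 in LP cells. In PWD, *Tnp2* and *Prm2* averaged 12.46 and 13.36 in LP cells against 10.93 and 11.89 in ST cells. In B6 they averaged 10.72 and 11.64 in LP cells against 12.14 and 12.71 in ST cells. The part of spermatid RNA in the LP levels was not tested. Sertoli cell markers had a summed level of 8.79 to 9.38 log2 in RP cells against 14.57 to 15.25 in LP cells, and the part of these cells in the changes between populations was not tested. Of 4 Leydig cell markers, none exceeded background in spermatocytes. The values describe bulk RNA, in which more cells of a type and more RNA per cell cannot be told apart.

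**Figure D1:**
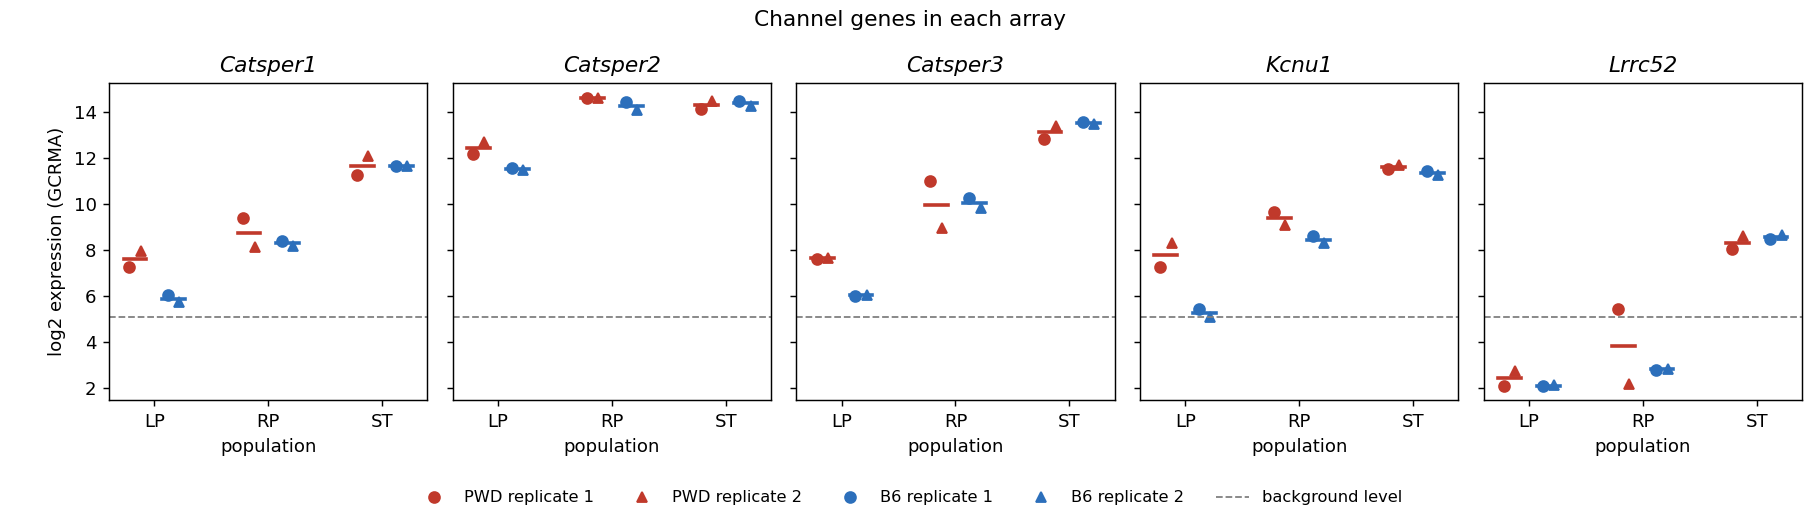
Log2 expression (GCRMA, y axis) of the 5 measured channel genes, array by array, against population (x axis). Points are single arrays of PWD (red) and B6 (blue), short lines are group means, and a dashed line marks background at 5.08. *Catsper2* reached its plateau in RP cells, and *Lrrc52* stood above the line on all arrays in ST cells only.

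*Catsper1* encodes the founding pore subunit of CatSper. It measured 7.27 and 7.93 log2 in PWD LP, 6.02 and 5.73 in B6 LP, 9.37 and 8.10 in PWD RP, 8.40 and 8.19 in B6 RP, 11.25 and 12.07 in PWD ST, and 11.63 and 11.65 in B6 ST cells. All 4 ST arrays lay above all RP arrays, and all RP arrays above all LP arrays. *Catsper3*, another pore subunit, ran over the widest range of the CatSper genes, with 7.61 and 7.64 log2 in PWD LP, 6.01 and 6.03 in B6 LP, 11.00 and 8.94 in PWD RP, 10.26 and 9.81 in B6 RP, 12.81 and 13.41 in PWD ST, and 13.57 and 13.48 in B6 ST cells. Its populations did not overlap either, although the PWD RP replicates were far apart.

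*Catsper2*, a pore subunit whose human ortholog is deleted in a syndrome of deafness and male infertility, measured 12.17 and 12.68 log2 in PWD LP, 11.57 and 11.45 in B6 LP, 14.62 and 14.59 in PWD RP, 14.42 and 14.08 in B6 RP, 14.13 and 14.46 in PWD ST, and 14.48 and 14.27 in B6 ST cells. The RP and ST arrays overlapped and both lay above the LP arrays. A second, dimmer *Catsper2* probeset measured 5.61 and 5.82 in PWD LP, 6.46 and 5.99 in B6 LP, 7.61 and 7.84 in PWD RP, 7.95 and 8.51 in B6 RP, 6.44 and 6.39 in PWD ST, and 7.45 and 6.95 in B6 ST cells. It was highest in RP cells in each strain, so that the probesets disagreed on what followed the pachytene stage.

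*Kcnu1*, the gene of the SLO3 pore subunit, measured 7.26 and 8.31 log2 in PWD LP, 5.43 and 5.07 in B6 LP, 9.65 and 9.08 in PWD RP, 8.59 and 8.30 in B6 RP, 11.53 and 11.70 in PWD ST, and 11.42 and 11.26 in B6 ST cells. Within each strain the populations did not overlap, whereas across strains the higher PWD LP array stood level with the lower B6 RP array. *Lrrc52*, the gene of its auxiliary subunit, measured 2.09 and 2.72 in PWD LP, 2.07 and 2.10 in B6 LP, 5.44 and 2.16 in PWD RP, 2.79 and 2.83 in B6 RP, 8.04 and 8.59 in PWD ST, and 8.46 and 8.63 in B6 ST cells. Only 1 spermatocyte array, PWD RP replicate 1, lay above background. The other *Lrrc52* probeset stayed below background on all arrays and gives no level.

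The first comparison asked which channel genes differed between the LP and RP spermatocytes. Of the 5 genes, 4 rose in RP cells against LP cells over both strains, and none fell, while 43.7% of all 18161 genes rose and 28.5% fell (limma with Benjamini-Hochberg adjustment over all probesets, adjusted p under 0.05). *Catsper3* rose most, by a log fold-change of 3.18 (SE 0.397, 9.07-fold, adjusted p = 0.000202, limma). *Catsper2* rose 5.5-fold (2.46, SE 0.139, adjusted p = 1.52e-06, limma), *Kcnu1* 5.22-fold (2.38, SE 0.244, adjusted p = 5.89e-05, limma) and *Catsper1* 3.43-fold (1.78, SE 0.311, adjusted p = 0.00149, limma). The median of the 5 genes was 2.38, against 0.085 over all genes. *Lrrc52* gave 1.06 (95% interval -0.35 to 2.47, adjusted p = 0.153, limma). Without PWD RP replicate 2 it was 1.88 (adjusted p = 0.000248, limma).

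The second comparison asked which of them changed again after meiosis, and shares its RP arrays with the first. Again 4 of 5 genes rose, in ST cells against RP cells, where 18.3% of all genes rose and 23.8% fell. *Lrrc52* rose by 5.13 (SE 0.611, adjusted p = 0.000264, limma). That value rests on RP levels below background on 3 of 4 arrays. With each such array set to the background level, the rise was at least 8.32-fold in PWD and at least 11.1-fold in B6. *Catsper3* rose 9.93-fold (3.31, SE 0.397, adjusted p = 0.000274, limma), *Catsper1* 8.77-fold (3.13, SE 0.311, adjusted p = 9.65e-05, limma) and *Kcnu1* 5.94-fold (2.57, SE 0.244, adjusted p = 7.65e-05, limma). The median of the 5 was 3.13, against 0.005 over all genes and -0.30 over genes above background.

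*Catsper2* differed from the other pore genes in this step. Its ST minus RP difference was -0.10 (95% interval -0.42 to 0.23, adjusted p = 0.789, limma), and the interval holds no rise beyond 0.23. The second *Catsper2* probeset fell by 1.17 in ST cells (SE 0.188, adjusted p = 0.00144, limma). The change of *Catsper1* exceeded that of *Catsper2* by 3.23 log2, that of *Catsper3* by 3.41, that of *Kcnu1* by 2.67 and that of *Lrrc52*, with values below background set to the background level, by at least 3.36. Taken array by array as the difference from *Catsper2*, the 4 ST values did not overlap the 4 RP values for any of these 4 genes, which gives p = 0.02857 each in a two-sided exact permutation test, the smallest that 70 arrangements allow (0.02857 after Benjamini-Hochberg adjustment over 4 comparisons). *Catsper2* was taken as the yardstick after its values were seen, and the 4 comparisons share those values. The 4 genes had already been called as rising on the same arrays, so this test adds no independent support.

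From LP to ST cells all 5 genes rose (48.9% of all genes did): *Catsper3* by 6.49 log2, *Kcnu1* by 4.96, *Catsper1* by 4.91 and *Catsper2* by 2.37. For *Lrrc52*, below background on all LP arrays, the rise was at least 3.23 log2 in PWD and at least 3.47 in B6. In each strain alone, ST cells exceeded RP cells for the same 4 genes, *Catsper1*, *Catsper3*, *Kcnu1* and *Lrrc52*, where 13.9% of all genes rose in PWD and 17.4% in B6. RP cells exceeded LP cells for 3 genes in PWD (38.7% of genes rose) and for 4 in B6 (23.2%). The gene short of the threshold in PWD was *Catsper1*, with 1.14 in PWD (adjusted p = 0.0528, limma) and 2.42 in B6 (adjusted p = 0.00244, limma). Fitted on the arrays of the compared groups alone, the PWD strain kept 1 call in each step, *Catsper2* in RP against LP and *Kcnu1* in ST against RP.

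**Figure D2:**
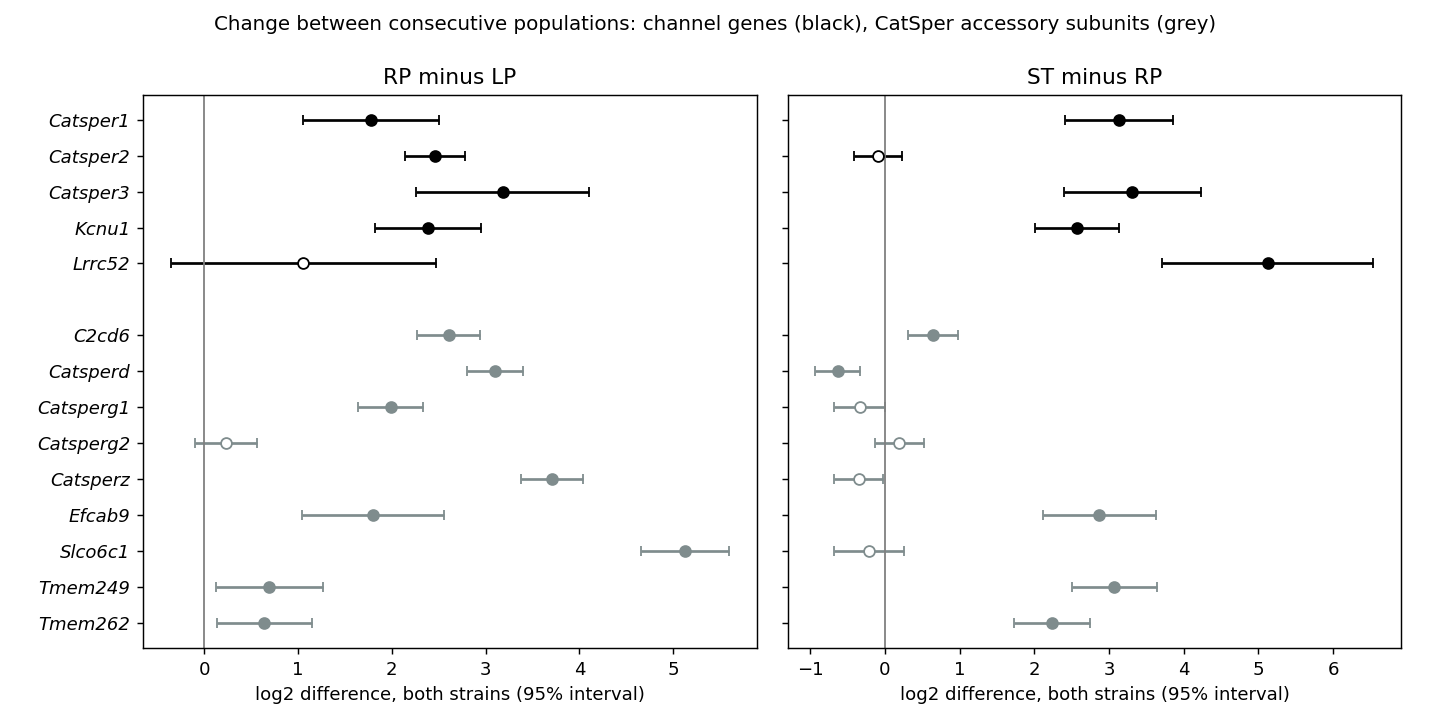
Log2 difference over both strains (x axis) of the 5 channel genes (black) and 9 CatSper accessory subunit genes (grey), for RP minus LP (left panel) and ST minus RP (right panel), with 95% intervals. Filled points passed an adjusted p of 0.05. *Catsper2*, *Catsperd*, *Catsperz* and *Slco6c1* had risen by RP cells and did not rise further, while *Lrrc52*, *Tmem249* and *Tmem262* changed mainly in ST cells. *Lrrc52* in LP and RP cells and *Catsperg2* throughout rest on levels below background.

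CatSper is assembled with accessory proteins, of which 9 of 12 listed genes were measured. *Catsperb*, *Catspere1* and *Catspere2* were named by no single-gene probeset. In RP cells against LP cells 8 of 9 rose and none fell, where 43.7% of all genes rose and 28.5% fell, with a median of 1.99 against 0.085 over all genes. *Slco6c1*, an organic anion transporter found in the mouse complex, rose by 5.13, *Catsperz*, a subunit needed to keep the channel in continuous rows along the tail, by 3.71, and *Catsperd*, a transmembrane subunit, by 3.10. *Catsperg2* averaged 2.81 to 3.48 log2 in the 6 groups, below background throughout, and gives no level. *Catsperg1* and *Catsperg2* are closely related copies whose probes may share signal.

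In ST cells against RP cells the accessory genes parted, 4 rising and 1 falling, where 18.3% of all genes rose and 23.8% fell, with a median of 0.19 against 0.005 over all genes. Those that rose were *Tmem249* by 3.07, *Efcab9*, the calcium sensor of the channel, by 2.87, *Tmem262* by 2.24 and *C2cd6*, which takes part in delivering the channel to the tail, by 0.64. *Catsperd* fell by 0.63 (adjusted p = 0.00542, limma). *Catsperz*, *Catsperg1* and *Slco6c1* gave -0.35, -0.34 and -0.21 and did not pass the threshold. *Efcab9* measured 9.03 and 10.18 log2 in PWD LP, 7.13 and 6.99 in B6 LP, 11.16 and 9.94 in PWD RP, 9.92 and 9.50 in B6 RP, 12.82 and 13.27 in PWD ST, and 13.00 and 12.93 in B6 ST cells, a course close to that of *Kcnu1* (Pearson r = 0.9915 over 12 arrays).

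**Figure D3:**
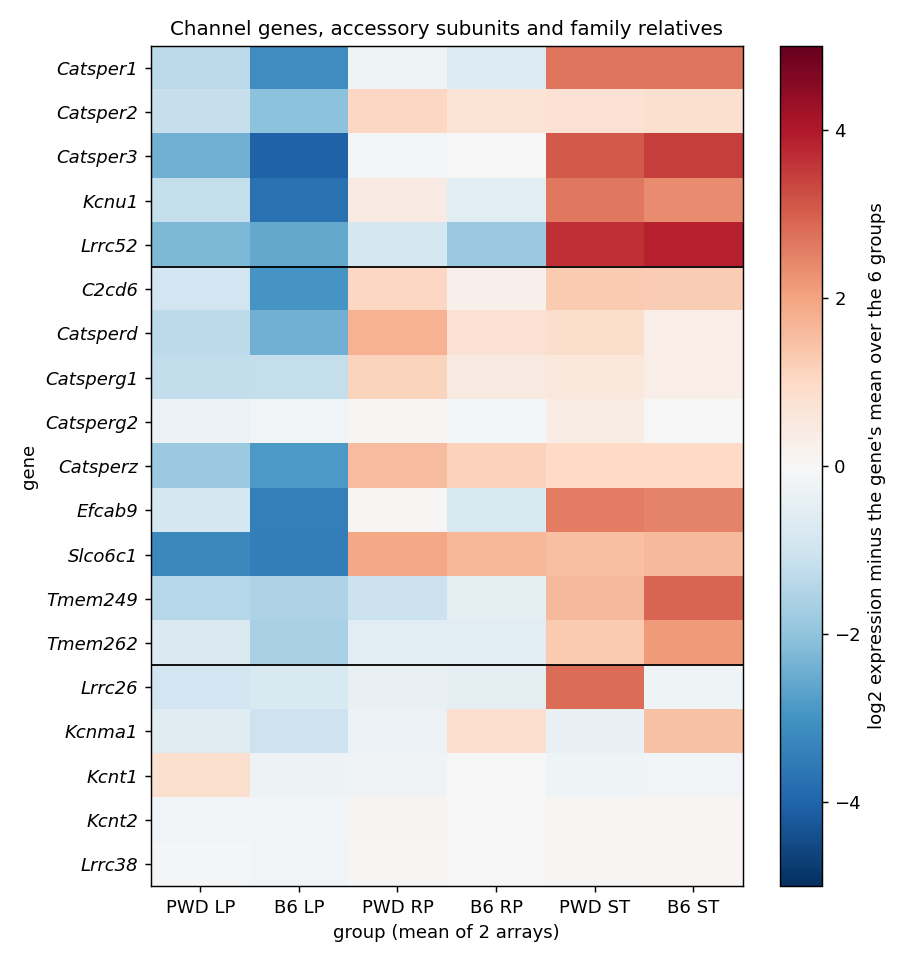
Group means of log2 expression for each gene (rows), as the difference from its own mean over the 6 groups (colour, log2), for channel genes (top), CatSper accessory subunits (middle) and relatives of SLO3 and LRRC52 (bottom). Columns are the groups, 2 arrays each. Among the relatives *Lrrc26* stood out in PWD ST cells, and *Kcnu1* and *Efcab9* were lowest in B6 LP cells.

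Strains were compared within each population. In LP cells 3 of 5 channel genes were higher in PWD and none was lower, against 16.6% of all genes higher and 5.88% lower. *Kcnu1* had the largest difference, with 7.26 and 8.31 log2 in PWD against 5.43 and 5.07 in B6, a log fold-change of 2.53 (SE 0.346, 5.79-fold, adjusted p = 0.00171, limma), with B6 near the background level. *Catsper1* was 3.31-fold higher in PWD (1.73, SE 0.44, adjusted p = 0.0294, limma) and *Catsper2* 1.88-fold (0.91, SE 0.197, adjusted p = 0.0146, limma). *Catsper3* gave 1.61 (SE 0.562, adjusted p = 0.0939, limma), with no overlap between the strains, and *Lrrc52* was below background in both. The median difference of the 5 genes was 1.61, against 0.31 over genes above background and 0.023 over all genes.

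Only the *Kcnu1* call kept its side of the threshold in every alternative tried. The *Catsper1* and *Catsper2* calls were lost with array weights (adjusted p = 0.145 and 0.107, limma), with the LP arrays alone (0.0512 and 0.0736), and without PWD LP replicate 2 (0.14 and 0.0602), B6 LP replicate 1 (0.0842 and 0.0526) or B6 LP replicate 2 (0.142 and 0.0829). Leaving out any of these 3 arrays left 1 gene called. *Catsper3* was gained with the LP arrays alone (adjusted p = 0.0308, limma) and when only probesets above background were tested (0.0147). It was gained too with the background level set without *Pomc* and *Uox* (0.0237), and without PWD RP replicate 1 or 2, where its difference stayed at 1.61. *Catsper1* alone was also lost without B6 ST replicate 1 (0.0523) or 2 (0.0522). The second *Catsper2* probeset ran the other way, with 5.61 and 5.82 in PWD against 6.46 and 5.99 in B6 (-0.51, adjusted p = 0.269, limma), and the mean of both *Catsper2* probesets differed by 0.20 (adjusted p = 0.574, limma).

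Some of the marker lists also differed between the strains in LP cells, where 16.6% of all genes were higher in PWD and 5.88% lower. In PWD LP cells 6 of 15 spermatid markers were higher and none was lower, with a summed level of 16.80 and 17.01 log2 against 16.07 and 16.12 in B6 LP cells. Of 10 Sertoli cell markers 3 were higher and 1 lower, with sums of 15.25 and 15.05 in PWD against 14.86 and 14.57 in B6. Of 10 prepachytene markers 1 was lower and none was higher. Of 10 pachytene and diplotene markers 2 were higher and 2 lower, and of 7 spermatogonia markers 1 was higher and 1 lower. Of 4 Leydig cell markers 1 was lower and none higher, and none of 6 peritubular and blood cell markers passed. The part of these cells in the result was not tested.

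In RP cells no channel gene passed the threshold between the strains, where 17.2% of all genes did. *Kcnu1* came closest, with 9.65 and 9.08 in PWD against 8.59 and 8.30 in B6 (0.92, SE 0.346, adjusted p = 0.123, limma; unadjusted p = 0.0291, the 1 gene of 5 under 0.05). It passed when only probesets above background were tested (0.0397), with array weights (0.0321) and without PWD LP replicate 1 (0.0445) or 2 (0.0447). In ST cells again none of 5 passed (17.1% of all genes did), and none had an unadjusted p under 0.05 on its highest-mean probeset. The ST difference was 0.02 for *Catsper1* (95% interval -1.0 to 1.04), -0.08 for *Catsper2* (-0.53 to 0.38), -0.41 for *Catsper3* (-1.71 to 0.89), 0.27 for *Kcnu1* (-0.53 to 1.07) and -0.23 for *Lrrc52* (-2.23 to 1.77). Differences of 2-fold were within the interval for all of these probesets but that of *Catsper2*. The second *Catsper2* probeset gave -0.79 (-1.40 to -0.17, unadjusted p = 0.0184, adjusted p = 0.114, limma), an interval that holds a 2-fold difference. Beside these values, 5 of 15 spermatid markers were lower and none higher in PWD ST cells, with a summed level of 17.39 and 17.93 log2 against 18.23 and 18.21 in B6 ST cells, and 3 of 10 Sertoli cell markers were higher and none lower. Their part in the strain comparison was not tested.

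**Figure D4:**
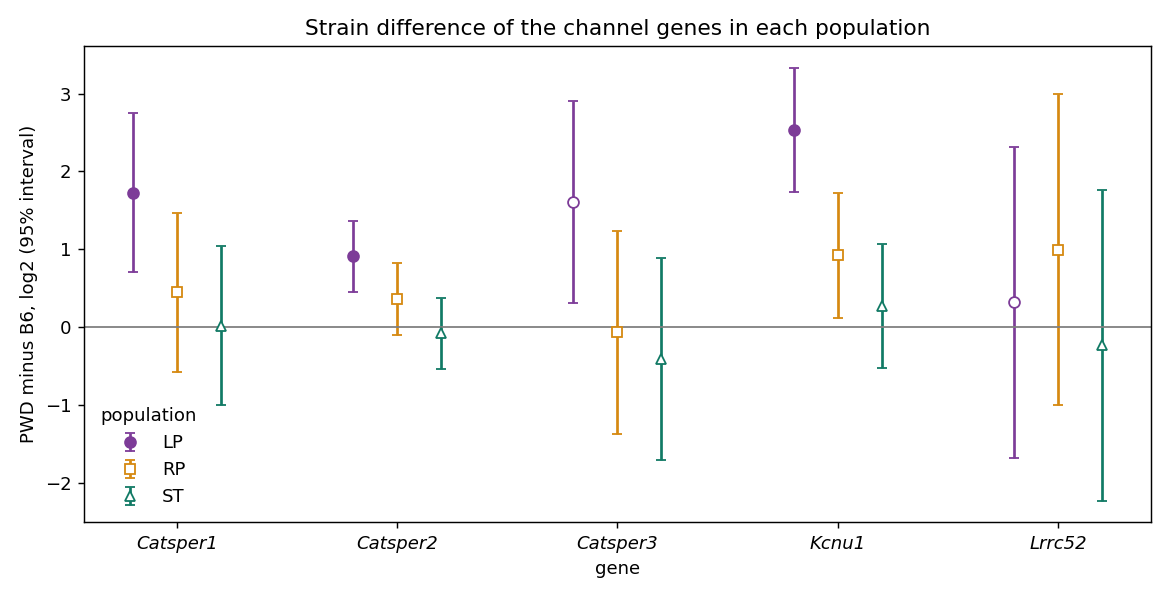
PWD minus B6 difference (log2, y axis) of each channel gene (x axis) in LP, RP and ST cells, with 95% intervals of the fit over 12 arrays. Filled points passed an adjusted p of 0.05. *Kcnu1*, *Catsper1* and *Catsper2* were higher in PWD LP cells, and no gene passed in RP or ST cells.

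Whether a difference in LP cells and none in RP cells amounts to a change was tested directly. For *Kcnu1* the rise to RP was 1.58 in PWD and 3.19 in B6, a difference of -1.61 (SE 0.489, adjusted p = 0.0745, limma). None of the 5 genes passed this test (13.7% of all genes did), nor the test on the step to ST cells (4.66%). The smallest unadjusted p was 0.0112 in the first, the 1 gene of 5 under 0.05, and none was under 0.05 in the second. Among the accessory subunits 4 of 9 were higher in PWD LP cells and none was lower, against 16.6% and 5.88% of all genes: *Efcab9* by 2.54, *C2cd6* by 1.99, *Catsperd* by 1.13 and *Catsperz* by 1.02. In RP cells 2 of 9 were higher, *Catsperd* by 0.99 and *C2cd6* by 0.79, near the 12.1% of all genes that were. In ST cells none of 9 passed (17.1% of all genes did). A second, dimmer *Catsperd* probeset ran the other way. It measured 4.87 and 3.07 in PWD RP against 5.39 and 6.13 in B6 RP cells. Its means were below background in LP cells (2.54 in PWD, 2.95 in B6) and ST cells (2.93 in PWD, 3.83 in B6).

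The PWD RP replicates disagreed on the genes that peaked in spermatids. Replicate 1 minus replicate 2 was 3.27 log2 for *Lrrc52*, 2.06 for *Catsper3*, 1.27 for *Catsper1*, 0.58 for *Kcnu1* and 0.03 for *Catsper2*. Of the 15 spermatid markers 11 were also higher in replicate 1, with a median of 0.85. Of 9201 genes above background 3265 were higher in it, with a median of -0.12. The markers lower in replicate 1 were *Tnp1* (-0.06), *Prm1* (-0.43), *Prm2* (-0.26) and *Tssk6* (-0.11). The part of spermatid RNA in replicate 1 was not tested. Without replicate 1, *Catsper3* was lower in PWD RP than in B6 RP cells (-1.10, adjusted p = 0.0479, limma) and its rise to RP was smaller in PWD (-2.71, adjusted p = 0.00535, limma). Without replicate 2, *Lrrc52* was higher in PWD RP cells (2.63, adjusted p = 0.00365, limma), and its changes to RP and to ST depended on strain (2.31 and -2.86, adjusted p = 0.0186 and 0.0148, limma), values that include levels below background.

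**Figure D5:**
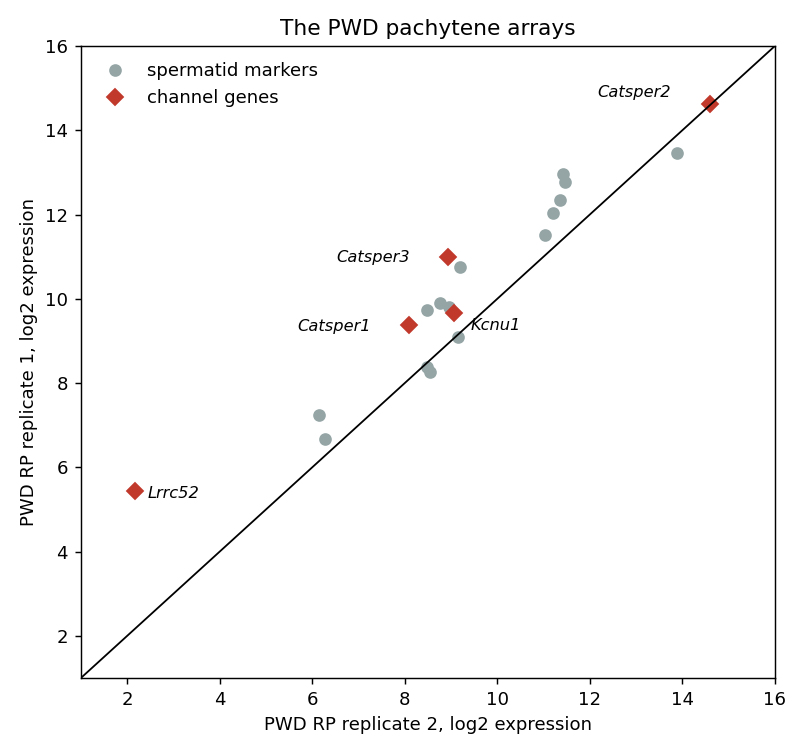
Log2 expression of the 5 channel genes (red diamonds) and 15 spermatid markers (grey) in PWD RP replicate 1 (y axis) against replicate 2 (x axis), with the line of equality. *Lrrc52*, *Catsper3* and *Catsper1* lay above the line with 11 of the 15 markers, and *Catsper2* lay on it.

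Over the 12 arrays, which share populations and strains, the course of *Catsper1* was closest to that of *Catsper3* (Pearson r = 0.981) and *Kcnu1* (0.979), while *Catsper2* and *Lrrc52* were least alike (0.584). Among all genes above background, those most like *Catsper1* were *Hyal5*, a sperm hyaluronidase (0.9983), *Izumo1*, the sperm protein that binds the egg (0.997), *Spata9* (0.9969) and *Acrv1*, an acrosomal protein (0.996). *Izumo1* and *Acrv1* are also in the spermatid marker list. For *Catsper2* they were *1700020D05Rik*, *4930544G11Rik*, *Ccdc110* and *Gtf2a1l*, a germ cell general transcription factor (0.9966 to 0.9971). *Gtf2a1l*, for example, averaged 14.48 log2 in PWD ST and 14.38 in B6 ST cells, against 14.61 in PWD RP and 14.09 in B6 RP cells. For *Catsper3* they were *4933405O20Rik*, *Tex36*, *1700013D24Rik* and *Armh2* (0.9951 to 0.998). *Kcnu1* ran with *Plin2*, which coats lipid droplets, *Fndc11*, *Ddhd1* and *Efcab9* (0.9915 to 0.9952). *Lrrc52* ran with *4933436I01Rik*, *Tmem243*, *Mfap3l* and *Armc12* (0.9915 to 0.996).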

How the data were processed

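The log2 values were deposited for standard probesets, and the submitters' processing notes name GCRMA (version not given in the sources used here). GCRMA corrects background by probe sequence, quantile-normalizes and summarizes probes. The methods describe RMA and name a second array type in this place, so the labels were followed. They also name another RNA kit and labelling protocol than the labels, which give 15 to 40 ng of RNA per array. Array probes follow a reference close to B6, so that mismatches to PWD transcripts can reduce their signal. Batches were not given in the labels.

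From these values, 64 control probesets were left out and 45037 tested in limma 3.58.1 (R 4.3.3) with 6 group means, a mean-dependent variance prior, and a threshold of 0.05 on p-values adjusted by Benjamini-Hochberg for each comparison. Annotation named exactly 1 gene for 34945 probesets, several for 932 and none for 9160. A gene was represented by its highest-mean probeset. Plots used Python 3.11.15, pandas 2.3.3, numpy 2.4.6, scipy 1.17.1 and matplotlib 3.10.9. Scripts were tested on simulated data.

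The series states that populations were isolated in duplicate from 2 animals per strain, but the labels do not tie a replicate number to an animal, so p-values measure the spread between sorted samples. Same-numbered samples were not paired. The channel genes and gene lists were chosen with earlier results of these data known. Named genes were all channel genes, accessory subunits and relatives, the 4 highest and 4 lowest ST minus RP differences among called ion transport genes above background, and the 4 genes most correlated with each channel gene. Alternatives were other normalization, centring, filters, variance priors, array weights, replicate blocks, smaller fits and leaving out each array. A background level without *Pomc* and *Uox* (3.79 log2) and the crossed block were chosen after seeing the data.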

Additional observations from a re-analysis of the deposited data

Results flagged for a closer look

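The results given here are genes of the related lists whose change between populations differed between the strains by test (limma interaction, Benjamini-Hochberg adjusted). For LP to RP they were 1 of 9 accessory subunits, 1 of 5 relatives and 3 of 19 other ion transport genes, near the 13.7% of all genes that passed. For RP to ST they were 0 of 9, 1 of 5 and 2 of 19, where 4.66% of all genes passed, and none of the 5 channel genes passed either test. *Slc26a6*, *Slc26a3* and *Car4* fall outside the rule for named genes and were named after their values were seen.

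The RP minus LP change was smaller in PWD than in B6 for *Cacna1h*, a T-type calcium channel gene, with 2.59 in PWD and 4.99 in B6 (difference -2.4, adjusted p = 0.00146, limma). *C2cd6* changed by 2.01 in PWD and 3.20 in B6 (difference -1.19, adjusted p = 0.0379, limma). *Slc9b1*, a sodium/hydrogen antiporter gene whose probesets were divided on this change, rose on its brightest probeset by 3.88 in PWD and 5.07 in B6 (difference -1.19, adjusted p = 0.0115, limma). For *Kcnt1*, a sodium-activated relative of SLO3, the difference was -1.17 (adjusted p = 0.0206, limma), and for the anion exchanger gene *Slc26a6* it was -1.66 (adjusted p = 0.0296, limma), but the group means of both stayed below the background level throughout.

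The ST minus RP change was larger in PWD for *Lrrc26*, a BK channel auxiliary subunit related to *Lrrc52*. It measured 6.01 and 6.60 log2 in PWD ST cells against 3.35 and 3.24 in B6 ST cells, and 2.32 to 3.19 on the spermatocyte arrays (difference of the changes 2.91, adjusted p = 0.00226, limma). Against the background level, PWD ST cells were at least 2.34-fold higher than B6 ST cells. Some markers of other cells also differed there. Of 4 Leydig cell markers 1 was higher in PWD ST cells and none was lower, with a median difference of 0.03. Among them *Cyp17a1* averaged 5.87 log2 in PWD ST cells and 2.56 in B6 ST cells. The summed level of the 4, which includes *Cyp17a1*, was 6.23 and 6.59 against 5.09 and 5.06. That of 10 Sertoli cell markers was 10.75 and 11.26 against 10.00 and 10.39. The part of these cells in the *Lrrc26* difference was not tested. *Slc26a3*, an anion exchanger gene, averaged 5.51 ± 0.437 in PWD ST cells and 3.03 ± 0.0475 in B6 ST cells (SD, n = 2 each), with a difference of the changes of 2.28 (adjusted p = 0.00626, limma). Its means in B6 ST cells and in RP cells (3.00 in PWD, 2.80 in B6) lay below background, so the size of that difference is uncertain. Its second probeset averaged 4.47 in PWD ST cells and 3.12 in B6 ST cells, both below background. *Car4*, a carbonic anhydrase gene, gave -0.633 (adjusted p = 0.0233, limma) with all group means below background.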

How the results depend on the processing

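No difference of a channel gene that passed the threshold changed sign under any alternative. The number of channel genes called kept within 1.5 times its value except in the following cases. Whether the LP to RP change depended on strain went to 1 call with renewed quantile normalization (*Catsper2*), and to 1 call (*Kcnu1*) with centring on probesets above background, with only those probesets tested, and with those above the background level set without *Pomc* and *Uox*, where 0 genes passed otherwise. PWD against B6 in RP went to 1 call (*Kcnu1*) with only probesets above background and with array weights, and in LP from 3 calls to 1 with array weights. With only the arrays of the groups compared, calls in PWD went to 1 for RP against LP (otherwise 3) and to 1 for ST against RP (otherwise 4). The cause was not tested, except that smaller fits hold fewer arrays.

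Leaving out 1 array gave 4 to 5 calls for RP against LP, 4 to 4 for ST against RP and 5 to 5 for ST against LP. It gave 1 to 4 for PWD against B6 in LP, 0 to 1 in RP and 0 to 0 in ST, and 0 to 1 for each test of dependence on strain. Within PWD it gave 3 to 5 for RP against LP and 4 to 4 for ST against RP, and in B6 4 to 4 for both.

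Deviations of same-numbered samples from their group means correlated at -0.292 to 0.117 over 15 pairs of groups. Of these, 1 was above 0.1, so the numbers were not taken as pairs. The lowest values were those of PWD RP with PWD LP cells (-0.292) and with PWD ST cells (-0.197). Whether the PWD RP numbers are crossed between animals is not given in the labels and was not tested. A replicate block by number, or within strain, left every count as it was: 4, 4 and 5 calls between populations, and by number 3 in LP and 0 in RP and ST. With the PWD RP numbers crossed, the replicate block gave 2 calls for dependence of the LP to RP change on strain.

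Levels near or below the background level are uncertain, which limits *Lrrc52* in spermatocytes and *Kcnu1* in B6 LP cells. With 2 arrays per group, every test borrows its spread from all groups.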

Other observations

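Beyond the channel subunits, 19 of 20 listed genes of sperm ion transport and its control were measured. In ST cells against RP cells 10 rose and 3 fell, where 18.3% of all genes rose and 23.8% fell, with a median of 0.74 against 0.005 over all genes. *Atp1a4*, the sperm-specific sodium pump subunit, rose by 3.90 (adjusted p = 3.45e-05, limma), and measured 12.56 and 13.05 log2 in PWD ST and 13.34 and 13.47 in B6 ST cells, against 10.07 and 9.01 in PWD RP and 9.22 and 8.52 in B6 RP cells. *Abhd2*, the lipid hydrolase through which progesterone acts on CatSper in human sperm, rose by 3.52 on its brightest probeset, whereas a second *Abhd2* probeset above background fell by 0.50 (adjusted p = 0.00252, limma). *Slc9a8*, a sodium/hydrogen exchanger gene, rose by 2.07 on its brightest probeset, while its 3 other probesets, below background on average, gave -1.66, -0.37 and -0.09, and *Cftr*, a chloride and bicarbonate channel gene, by 1.35. The genes that fell were *Cacna1h* by 1.04, *Slc26a8*, a testis anion transporter gene, by 0.62 and *Slc9b1* by 0.41.

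*Cacna1h* and *Slc9b1* had risen in RP cells against LP cells, by 3.79 and 4.47, and had their highest group means in RP cells. Other *Slc9b1* probesets were divided. One that also rose averaged 9.47 log2 in PWD RP cells and 8.64 in B6 RP cells against 5.05 in PWD LP and 3.57 in B6 LP cells. Another fell, and averaged 5.01 in PWD RP cells and 5.82 in B6 RP cells against 8.01 in PWD LP and 8.57 in B6 LP cells. A further probeset fell likewise, to 4.69 in PWD RP and 5.59 in B6 RP cells from 7.96 in PWD LP and 8.35 in B6 LP cells. *Cftr* differed between the strains in RP and ST cells, with 9.87 and 9.61 log2 in PWD ST against 8.67 and 8.36 in B6 ST cells (1.23, adjusted p = 0.0111, limma), and *Slc9a8* the other way, with 6.98 and 7.10 in PWD ST against 8.61 and 7.97 in B6 ST cells (-1.25, adjusted p = 0.0263, limma). Of the 5 measured relatives of SLO3 and LRRC52, none had a mean over 12 arrays above background. On single arrays the brightest *Kcnma1* probeset exceeded it, with 5.44 and 5.84 log2 in B6 ST and 3.88 and 6.13 in B6 RP cells. In PWD ST cells that probeset measured 3.86 and 3.72, and its strain difference in ST cells did not pass the threshold. The other *Kcnma1* probesets stayed below background.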
